A study of Mus musculus with 8 samples.

Results

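Spata, Tex and Tssk genes are named for the testis: spermatogenesis associated, testis expressed, and testis-specific serine kinase. The members described here were the transcripts whose gene symbol began with Spata, with Tssk, or with Tex and a digit, except those of 1 Spata gene that the rule set aside, and they were chosen by name and not by any measured value. They comprised 34 transcripts of 29 genes, among 2783 transcripts with 2243 symbols in the whole data set. The Spata genes numbered 16 with 20 transcripts, the Tex genes 9 with 10 transcripts, and the Tssk genes 4 with 4 transcripts. Poly(A) RNA of whole testes was read molecule by molecule on Nanopore chips, so that each read counted 1 RNA and also carried an estimate of its poly(A) tail in nucleotides (nt). The testes came from adult males that were Tent5c wt/wt (wt) or Tent5c dcat/dcat (dcat), each given vehicle or a single dose of busulfan at 20 mg/kg and sampled 4 weeks later, with 2 mice in each of the 4 groups. Tent5c encodes an enzyme that lengthens poly(A) tails in the cytoplasm, and the dcat allele, carried in every cell of the animal, leaves the protein without that activity. Busulfan is an alkylating agent that depletes dividing germ cells. The comparison of busulfan with vehicle asks what is lost from these families with the germ cells, and the comparison of genotypes asks whether the tails or levels of their RNAs depend on the activity of TENT5C.

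Most of these genes are switched on in meiotic spermatocytes or in haploid spermatids. TSSK kinases appear after meiosis and are needed for the reshaping of the spermatid, and TSSK6 takes part in the exchange of histones for protamines. Spermatids stop transcribing as their chromatin is packed, so that many of their mRNAs are stored and translated later, and stored and translated forms of an mRNA can differ in their poly(A) tails. The families share a name and a tissue and not a protein fold: they include kinases (Tssk), mitochondrial proteins (Spata18, Spata19, Spata33), acrosome proteins (Spata16, Tex22), a surface glycoprotein (Tex101) and proteins that many tissues make (Spata7, Tex2).

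The promoter windows below are shown because the transcription factor CREM drives many spermatid genes through cAMP response elements (CRE). RefSeq promoters (GRCm38.p6, 250 bases before to 50 after the start) were found for 24 of the 29 genes, as 27 promoters. The full element TGACGTCA, read on both strands, was present in 1 of these 27 promoters and in 1.79% of all 32851 promoters. The shorter core TGACGT, which the full element contains, was present in 4 of 27 and in 7.51% of all promoters, and the X-box core GTTGCC, a letter string bound by RFX factors, in 5 of 27 and in 12.5%. The 3 windows that follow are 30 bases long, written 5′ to 3′ on the strand of the gene, with the matching letters in capitals (ACGTCA is the core TGACGT read on the other strand). The first lies at chr12:98628124-98628153 (plus strand) with its match 7 bases before the RefSeq start of Spata7, the second at chr5:73651311-73651340 (plus strand) with its match 57 bases before Spata18, and the third at chr11:121118855-121118884 (minus strand) with its match 195 bases before Tex19.2.
Spata7: tccctgtgttgTGACGTCAtaatctgcagc
Spata18: cagccggccgccACGTCAaggtttgtttaa
Tex19.2: gatgacagaggaACGTCActacaccagtgt
Of these 3 genes, Spata7 fell after busulfan in both genotypes, Spata18 fell in wt testes, and Tex19.2 rose in wt testes. Tex36, the other gene with the core, has its match 28 bases after its start and is not shown, since the matches printed begin before the start, and it fell in both genotypes. A match of letters is a description of the window and not a bound site.

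The members made up 1.74% and 1.64% of all reads in the 2 wt vehicle samples, and 0.12% and 0.169% in the 2 wt busulfan samples. In dcat testes they made up 1.45% and 1.69% of reads after vehicle, and 0.285% and 0.542% after busulfan. In each genotype both busulfan samples lay below both vehicle samples, and both dcat busulfan samples lay above both wt busulfan samples. The 16 Spata genes fell from 1.14% ± 0.082 (SD, n = 2) to 0.0612% ± 0.0224 of reads in wt testes, the 4 Tssk genes from 0.294% ± 0.0175 to 0.0417% ± 0.0182, and the 9 Tex genes from 0.259% ± 0.0016 to 0.0414% ± 0.0057. Total reads per sample ranged from 29574 (dcat vehicle replicate 1) to 129074 (dcat vehicle replicate 2), which gave 79 to 2176 reads of members in a sample. In whole testis, fewer germ cells and less RNA per germ cell cannot be told apart.

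**Figure D1:**
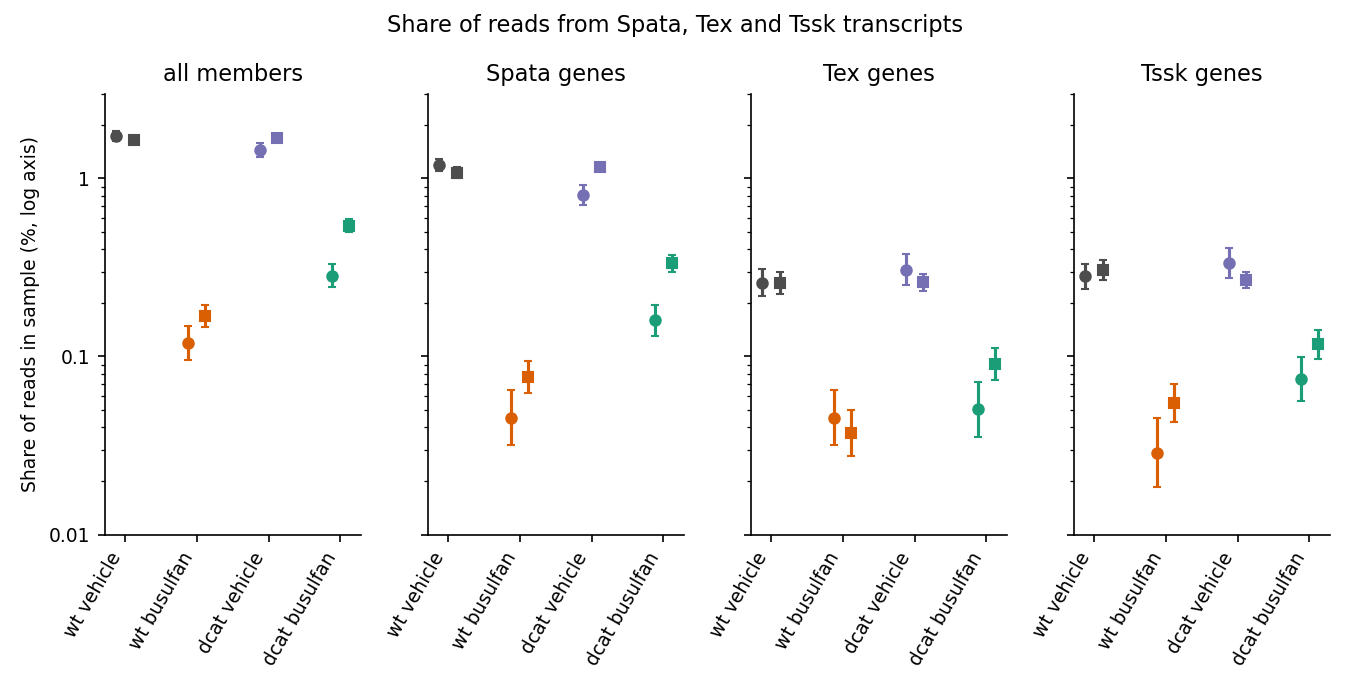
Share of all reads of a sample (%, log axis) that came from all 34 member transcripts and from the Spata, Tex and Tssk transcripts, in the 4 groups. Circles are replicate 1, squares are replicate 2, and bars are Wilson 95% confidence intervals, which cover counting error only; all busulfan samples lie below all vehicle samples in each panel.

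The samples also moved in the markers of cell types, whose part in the results below was not tested. All 16 listed late spermatid genes were read, with a summed level of 97518 to 123901 CPM (reads scaled to a common library total) in the vehicle samples, 11173 to 15465 in wt busulfan and 23259 to 41200 in dcat busulfan, so that dcat busulfan replicate 2 stood highest of the busulfan samples. The spermatocyte list (6 of 12 genes read) stood at 14776 to 17619 CPM after vehicle, 893 to 1066 in wt busulfan and 1903 to 4643 in dcat busulfan, and the round spermatid list (5 of 10 genes read) at 2739 to 3246, 30.3 to 139 and 179 to 383. Leydig (11 of 12 genes read) and Sertoli markers (8 of 13) went the other way, and both lists stood lower in dcat than in wt busulfan samples. The Leydig list was at 4106 to 7371 CPM after vehicle, 45843 to 50188 in wt busulfan and 24157 to 29147 in dcat busulfan, and the Sertoli list at 2789 to 4835, 30184 to 30976 and 19607 to 27878. Mitochondrial transcripts took 4.38% to 6.08% of reads in the vehicle samples and 14.0% to 16.2% in the busulfan samples. No germ cell marker that was read fell to 0 in a group, and the erythroid gene Hba-a2 was at 0 in dcat busulfan. Tent5c itself had 18 to 115 reads in a sample, and since the dcat allele still makes a transcript this checks no label.

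In wt testes, 27 of the 29 genes and 32 of the 34 transcripts were lower after busulfan, where 38.3% of all transcripts were (edgeR's quasi-likelihood test, adjusted p under 0.05). The median log2 fold change over the 34 transcripts was -4.27, and -4.09 with the 2 transcripts without a read after busulfan set at their bounds, where the median over all transcripts was 0.09. The table admits a transcript with at least 10 reads in both samples of a group, and 28 of the 34 members entered only through a vehicle group. Such transcripts had to be high in vehicle samples, and of all 898 of them 94.8% were lower in wt testes, as were 96.4% of the 28 members, so that the members stood close to that share. The other 6 members reached the minimum in a busulfan group, and 1 of them, Tex19.2, reached it in no vehicle group. Of the 6, 5 were lower, where 11.5% of all transcripts that entered also or only through a busulfan group were. That share includes transcripts that had to be high after busulfan. The 5 lower members reached the minimum in both vehicle groups and in dcat busulfan, and not in wt busulfan. The share among transcripts that entered in this way was not counted, so the 11.5% is no like comparison for a fall in wt testes.

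All 4 TSSK kinases fell in wt testes, Tssk1 and Tssk2 with larger log2 fold changes than Tssk3 and Tssk6. Tssk1 lies at chr16:17894223-17897922 as a single exon just before Tssk2, also a single exon, at chr16:17898637-17900024 on the same strand. Tssk1 stood at 426 and 758 CPM (scaled by TMM, as for the other CPM values of single genes) in wt vehicle and at 13.1 and 9.41 in wt busulfan, which is 1 read in each sample. Its vehicle level was 56.3 times its busulfan level, with a counting interval from 15.1 to 474 (edgeR adjusted p = 7.76e-07). Tssk2 went from 891 and 1001 CPM to 0 and 113, a log2 fold change of -3.87 ± 0.58 (SE) and an adjusted p of 4.4e-06, and its 2 busulfan samples were far apart. Tssk3 (chr4:129489014-129491022, 2 exons) went from 562 and 443 to 118 and 94.2 CPM, and Tssk6 (chr8:69902184-69903518, a single exon) from 891 and 958 to 118 and 377. Their log2 fold changes were -2.24 ± 0.47 (adjusted p = 0.000193) and -1.84 ± 0.44 (adjusted p = 0.000639), and wt busulfan replicate 2 kept more Tssk2 and Tssk6 than replicate 1. Tssk3 and Tssk6 were the pair with the smallest falls among all members called lower in wt testes. Whether the kinases differed from each other was not tested.

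Members of the sperm head, acrosome and surface were lower in 8 of 8 transcripts, with fitted log2 fold changes from -6.17 (a second transcript of Spata20, with 1 read after busulfan) to -4.21. All 8 entered the table only through a vehicle group, and 8 of 8 is near the 94.8% of all such transcripts. Spata46, needed for shaping the sperm head, went from 504 and 558 CPM to 13.1 and 37.7 (log2 fold change -4.21 ± 0.61, adjusted p = 2.84e-06). Spata20, a thioredoxin-like protein, went from 600 and 572 CPM to 13.1 and 18.8, a ratio of 35.6 with a counting interval from 11.7 to 176. Tex22, an acrosomal protein, went from 329 and 486 CPM to 26.2 and 9.41. Its ratio was 25.5, with an interval from 8.26 to 128, which rests on 3 reads after busulfan. Spata16, needed to form the acrosome, went from 291 and 257 CPM to 13.1 and 9.41, a ratio of 24.8 with an interval from 6.34 to 213. Spata3 went from 213 and 186 CPM to 0 and 9.41, a ratio of 36.1 with an interval from 5.88 to 1483. In each of these genes both busulfan samples were far below both vehicle samples, which describes transcripts that had to be high after vehicle and is not a further test.

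Members of the sperm tail and mitochondrial sheath were also lower in 8 of 8 transcripts, from -5.16 to -3.18, and 6 of these 8 had entered only through a vehicle group, with the same 94.8% beside them. Spata4 was the member with the most reads, at 2421 and 2845 CPM after vehicle and 91.6 and 207 after busulfan (log2 fold change -4.08 ± 0.46, adjusted p = 1.63e-07). Spata33, which tethers calcineurin to sperm mitochondria, went from 1801 and 1630 CPM to 78.5 and 113 (-4.11 ± 0.51, adjusted p = 5.58e-07). Spata19, a protein of the mitochondrial sheath, went from 891 and 629 CPM to 26.2 and 18.8 (-5.00 ± 0.71, adjusted p = 2.43e-06). Spata18, known for the quality control of mitochondria, went from 659 and 357 CPM to 13.1 and 84.7 (-3.18 ± 0.58, adjusted p = 3.87e-05), the smallest fall of this list. Spata24 (852 and 458 CPM to 39.3 and 84.7) and Spata45 (407 and 486 to 13.1 and 9.41) were called lower too, and Spata45, with 2 reads after busulfan, had a ratio of 41.3 with an interval from 10.9 to 350. Spata21, an EF-hand protein placed in none of these lists, went from 736 and 786 CPM to 13.1 and 122 (-3.33 ± 0.54, adjusted p = 1.14e-05), and Spata6l, likewise in none, went from 271 and 357 CPM to 39.3 and 18.8 (-3.45 ± 0.62, adjusted p = 3.41e-05).

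At the far end of the order, 2 members had no read in either wt busulfan sample. Spata31f3 had 271 and 229 CPM after vehicle and was at least 7.41-fold lower after busulfan, and Spata25 had 174 and 214 CPM and was at least 5.76-fold lower, taking 3 reads in each library as the floor. Tex29 kept 1 read, for a ratio of 43.6 with an interval from 7.22 to 1779. Tex36, Tex48 and Tex54 kept 2 or 3 reads each over both samples, with ratios of 31.5 (interval 8.21 to 269), 22.0 (7.06 to 111) and 36.8 (9.66 to 312). At the near end, after Tssk6 and Tssk3, came Tex101 (-2.41 ± 0.62, adjusted p = 0.00137), a GPI-anchored surface protein of germ cells, Spata9 (-2.85 ± 0.68, adjusted p = 0.000714) and Tex2 (-2.96 ± 0.68, adjusted p = 0.000469), a lipid-transfer protein of the endoplasmic reticulum. All the members named in this paragraph had vehicle samples above both busulfan samples. Apart from Tssk6 and Tssk3 they entered only through a vehicle group, so this is a description and not a further test.

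Tex19.2 and Tex30 were the genes that did not fall in wt testes. Tex19.2, the germ cell relative of Tex19.1, had 19.4 and 42.9 CPM after vehicle and 183 and 104 after busulfan, which is 1 and 3 reads against 14 and 11. It rose by 2.02 ± 0.70 on the log2 scale (adjusted p = 0.0118), where 35.4% of all transcripts were higher. Tex19.2 had entered the table only through the wt busulfan group, so it had to be high there. The share of transcripts of that kind called higher was not counted, and the call is no independent sign of a rise. The call did not hold in DESeq2 (2.06, adjusted p = 0.0989), nor without wt vehicle replicate 1 (1.88, adjusted p = 0.0626) or wt busulfan replicate 1 (1.61, adjusted p = 0.0927). Tex30 had 96.9 and 143 CPM after vehicle and 105 and 122 after busulfan, with a log2 fold change of -0.10 ± 0.59 and overlapping samples. Of the list of broadly expressed members, Tex30 shared a place with Tex2 and Spata7, a protein of the photoreceptor cilium, and Spata7 fell from 194 and 243 CPM to 13.1 and 18.8 (adjusted p = 7.62e-05), a ratio of 13.5 with an interval from 4.16 to 69.6.

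**Figure D2:**
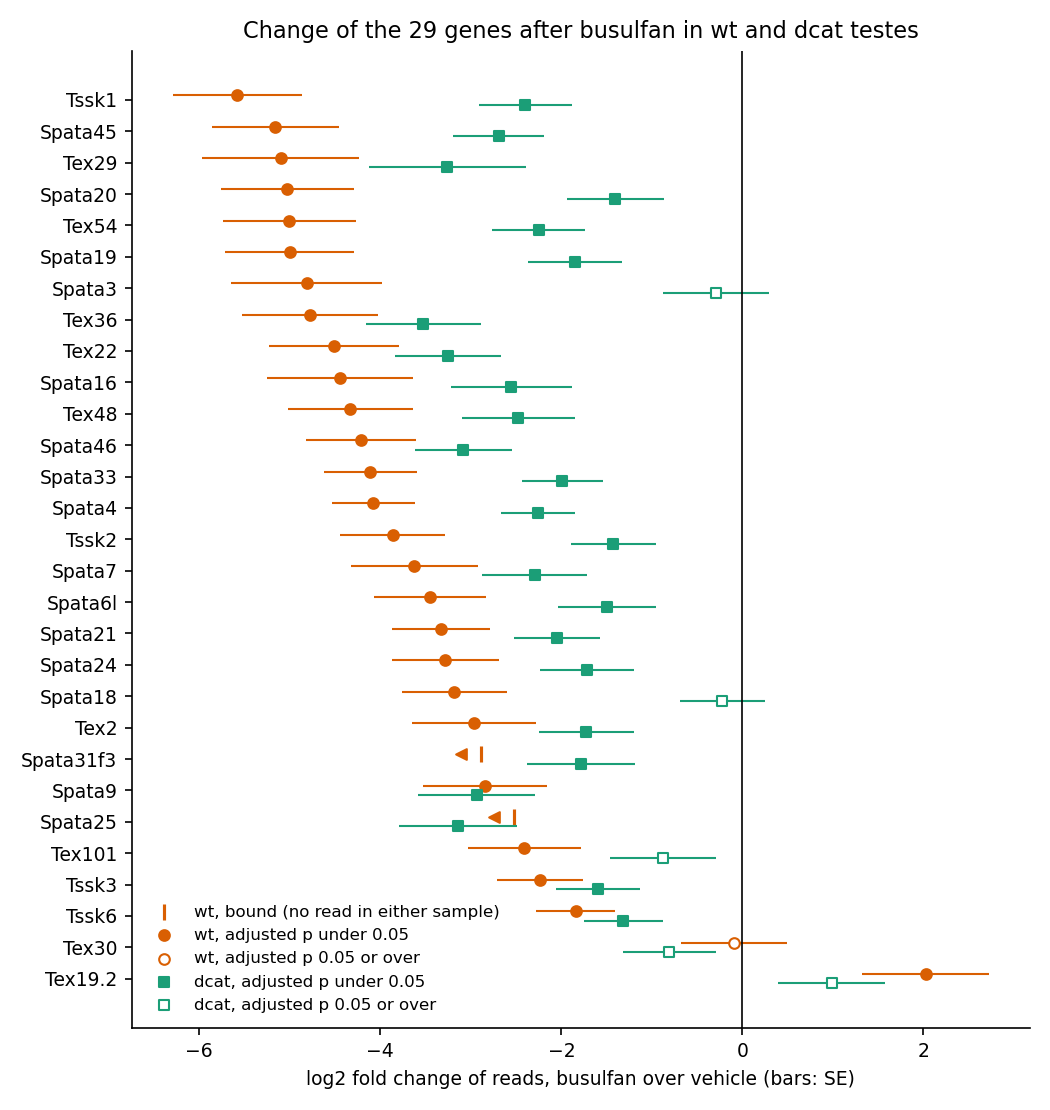
log2 fold change of reads, busulfan over vehicle, for the transcript with the most reads of each of the 29 genes, in wt (circles) and dcat testes (squares), with the SE of the edgeR fit. Filled symbols have an adjusted p under 0.05; arrows mark Spata31f3 and Spata25, which had no read in wt busulfan and are drawn at their bounds. Tex19.2 is the gene to the right of 0 in both genotypes, and Spata18 and Spata3 lie close to 0 in dcat testes.

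In dcat testes, 24 of the 29 genes and 29 of the 34 transcripts were lower after busulfan, where 31.4% of all transcripts were. The median log2 fold change of the members was -2.02, where it was 0.14 over all transcripts. Of all transcripts that entered the table only through a vehicle group, 82.3% were lower in dcat testes. By gene, the 5 largest falls were those of Tex36 (-3.52 ± 0.64), Tex29 (-3.26 ± 0.86), Tex22 (-3.25 ± 0.58), Spata25 (-3.14 ± 0.65) and Spata46 (-3.08 ± 0.54), with adjusted p from 0.000124 to 0.00278. Tex29 kept 2 reads, for a ratio of 10.9 with an interval from 2.69 to 95.9. Spata4 went from 1693 and 2708 CPM to 257 and 652 (-2.26 ± 0.41, adjusted p = 0.000162). The 5 smallest falls among those called were those of Tssk6 (-1.32 ± 0.44), Spata20 (-1.41 ± 0.53), Tssk2 (-1.43 ± 0.47), Spata6l (-1.50 ± 0.54) and Tssk3 (-1.60 ± 0.46). The 4 kinases were thus all lower, with Tssk1 at -2.40 ± 0.51.

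The 5 transcripts not called in dcat testes were those of Spata18, Spata3 (its transcript with the most reads), Tex101, Tex19.2 and Tex30. Spata18 had 332 and 431 CPM after vehicle and 305 and 369 after busulfan, so that its samples overlapped (-0.22 ± 0.47, adjusted p = 0.694). Spata3 had 66.4 and 104 CPM after vehicle and 80.3 and 76.1 after busulfan, on 2 to 13 reads in a sample. The second Spata3 transcript, with 48 reads over all samples against 52, went the other way. It had 66.4 and 160 CPM after vehicle and 0 and 21.7 after busulfan, and was called lower. Tex101 stood at 398 and 176 CPM, then 48.2 and 196, and Tex30 at 398 and 184, then 112 and 163. Tex19.2 stood at 66.4 and 63.9 CPM, then 112 and 141 (0.98 ± 0.59, adjusted p = 0.148). Without dcat busulfan replicate 2, which among the busulfan samples had the most germ cell markers, the median of the members was -3.02. Leaving out dcat vehicle replicate 2 lets the shallowest of all samples stand for its group. In that fit Spata19 was at -0.49 and Spata31f3 no longer fell (0.030). In both of these fits the sample left alone is assumed to vary like the other groups.

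After busulfan, 10 transcripts of 9 genes were higher in dcat than in wt testes and none was lower, where 5.39% of all transcripts were higher. Spata18 had 13.1 and 84.7 CPM in wt and 305 and 369 in dcat testes, a difference of 2.63 ± 0.59 on the log2 scale (adjusted p = 0.0113). Tssk2 had 0 and 113 CPM in wt and 289 and 511 in dcat testes (2.65 ± 0.61, adjusted p = 0.0132), and Tssk1 13.1 and 9.41 against 48.2 and 152 (adjusted p = 0.042), with a wt level 0.0994 times that of dcat and an interval from 0.0111 to 0.419. Spata4 had 91.6 and 207 CPM against 257 and 652 (1.59 ± 0.48, adjusted p = 0.0475). In all 9 genes both dcat samples were above both wt samples. This describes genes picked by the call and is not a further test, and the share of all transcripts separated in this way was not counted. Spata19 (26.2 and 18.8 against 64.2 and 272 CPM), Spata20 (13.1 and 18.8 against 32.1 and 272) and Tex54 (0 and 18.8 against 64.2 and 130) followed, with adjusted p from 0.0263 to 0.0447. The log2 difference of Spata19 was 2.94 ± 0.83, and the wt levels of Spata20 and Tex54, on 3 and 2 reads, were 0.0939 (interval 0.0182 to 0.305) and 0.106 (0.0118 to 0.449) times the dcat levels. Spata3 had 0 and 9.41 CPM in wt and 80.3 and 76.1 in dcat testes (adjusted p = 0.0382), a wt level 0.0704 times that of dcat with an interval from 0.00165 to 0.476. The second Spata3 transcript, with 13.1 and 0 CPM in wt and 0 and 21.7 in dcat testes, was not called. Spata31f3, with no read in wt, had 48.2 and 76.1 CPM in dcat testes, which is 3 and 7 reads (adjusted p = 0.0404). Tssk3 (0.57 ± 0.53, adjusted p = 0.632) and Tssk6 (0.38 ± 0.46, adjusted p = 0.742) were not called.

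The calls between genotypes did not hold when single samples were left out, in fits where the remaining sample of that group is assumed to vary like the other groups. None of the 10 was called without dcat busulfan replicate 2, where the median of the members went from 1.65 to 1.06, and none without wt busulfan replicate 1, where it was 1.84, while the share of all transcripts called higher went to 0.323% and 0.108%. The log2 differences of the 9 genes stayed above 0 in both fits: without dcat busulfan replicate 2 that of Spata18 was 2.47 (adjusted p = 0.0667), that of Tssk2 2.15 and that of Spata4 0.72, and without wt busulfan replicate 1 they were 1.98, 1.84 and 1.17. Those of Spata19 and Spata20 went to 1.48 and 0.90 without dcat busulfan replicate 2, and to 3.14 and 3.03 without wt busulfan replicate 1. Without wt vehicle replicate 1, wt vehicle replicate 2 or wt busulfan replicate 2 the fit called 2 members, and DESeq2 called 2 of the 20 members it tested. Without dcat busulfan replicate 1 the median of the members was 2.13. Of the marker lists, 13 of 27 late spermatid transcripts and 3 of 14 spermatocyte transcripts and 0 of 5 round spermatid transcripts were higher in dcat than in wt testes after busulfan, and their part in the members' difference was not tested.

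**Figure D3:**
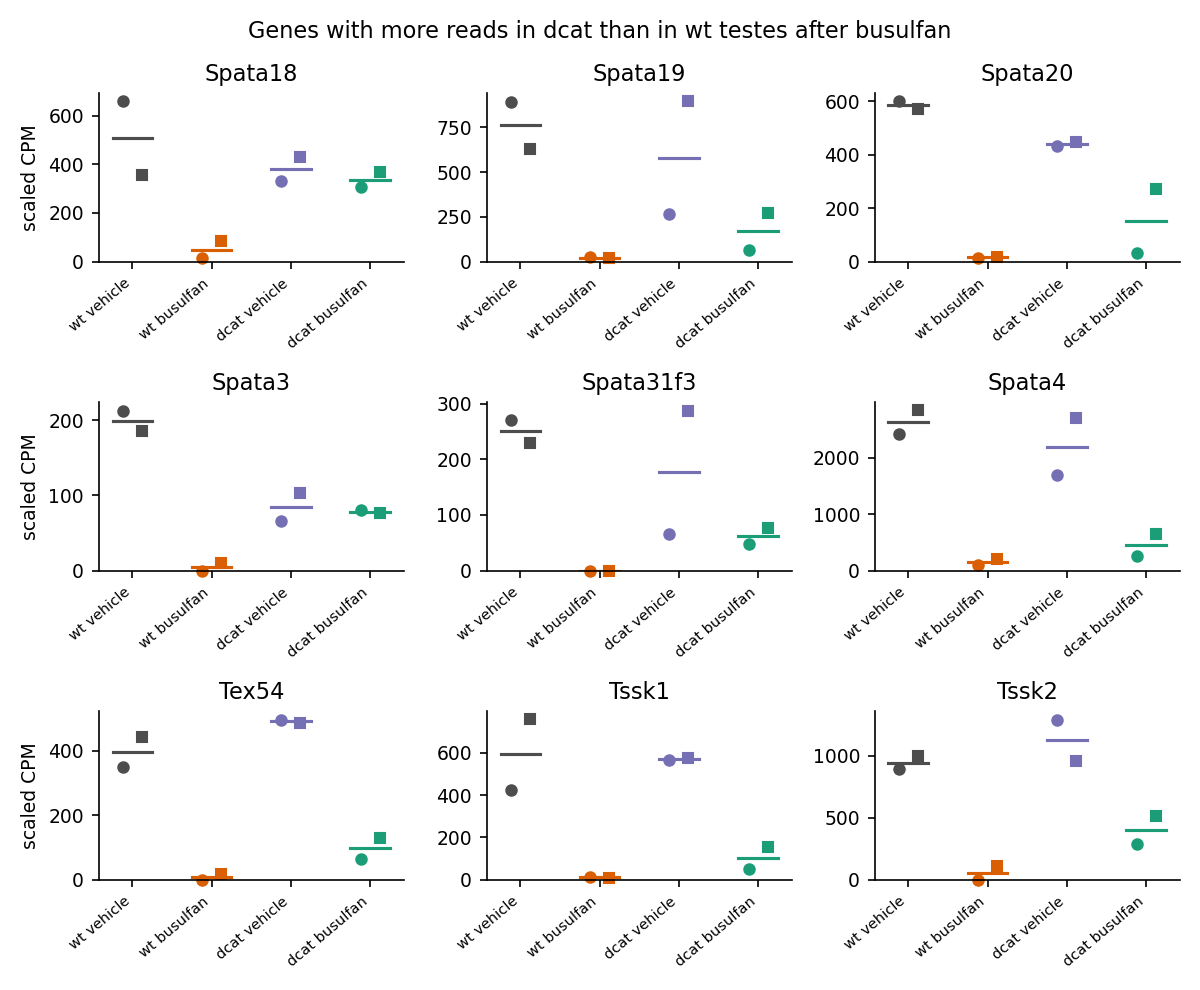
Scaled CPM of the transcript with the most reads of the 9 genes called higher in dcat than in wt testes after busulfan, in the 4 groups of 2 samples. Circles are replicate 1, squares replicate 2 and lines the group means; for each gene the dcat busulfan samples lie above the wt busulfan samples, and replicate 2 is the higher of the dcat busulfan samples except for Spata3.

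The test of the interaction, which asks whether busulfan lowered a member less in dcat than in wt testes, called 0 of 34 members in edgeR and 0 of the 16 that DESeq2 tested, where edgeR called 0.323% of all transcripts higher. In edgeR 15 members had an unadjusted p under 0.05. The share of all transcripts under that unadjusted threshold was not counted, so the 15 have nothing to be set against. The lowest adjusted p was 0.0507, for Spata18 (2.96 ± 0.76) and Spata3 (4.52 ± 1.12, on 1 read in wt busulfan). The methods of the paper tie the replicate number to a shared sequencing library. With that number as a block 9 transcripts were called, where 4.38% of all transcripts were. They were those of Spata3, Spata4, Spata18, Spata19, Spata20 (both transcripts), Spata31f3, Spata33 and Tssk2. The second Spata3 transcript was not called with the block (1.55 ± 1.79). The median interaction over the members was 1.85 with all samples and 2.25 without dcat busulfan replicate 1. After vehicle, no member differed between genotypes in edgeR or DESeq2, and none had an unadjusted p under 0.05. The differences after vehicle ran from -1.04 for Spata3 to 1.01 for Tex30, with a median of -0.08.

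In vehicle testes the members carried long tails. Over all their reads the mean tail was 153 and 155 nt in the 2 wt samples and 146 and 158 nt in the 2 dcat samples, where all reads averaged 139, 141, 134 and 144 nt. Where all 4 vehicle samples held 10 or more reads, 15 genes could be ordered among 720 transcripts, and 11 of the 15 were above the median of all (144 nt). Tex101 and Spata46 had the shortest tails, at 126 ± 7.12 and 126 ± 15.5 nt (SD, n = 4). After Tex22 (136 ± 18.9 nt) and Spata33 (143 ± 5.78 nt), Tssk6 stood at 145 ± 3.47, Spata4 at 147 ± 4.06, Tssk2 at 153 ± 7.48, Tssk3 at 156 ± 7.56 and Tssk1 at 167 ± 2.34 nt, so that Tssk2 and Tssk3 did not differ beyond their spread. Spata18 (174 ± 4.71 nt) and Spata20 (179 ± 10.6 nt) had the longest, longer than 96.2% and 98.1% of the transcripts. None of the 15 was called between dcat and wt vehicle testes (limma, none at an unadjusted p under 0.05, the lowest being 0.266). The differences ran from -14.3 nt for Spata46 to 7.83 nt for Spata24. That of Spata4, the member with the most reads, was -0.15 ± 7.27 nt (SE).

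After busulfan the few remaining Tssk reads had short tails in wt testes, while those of the Spata and Tex genes were longer. Over all reads of a family, the Tssk tails averaged 150 and 155 nt in wt vehicle and 63.5 and 64.8 nt in wt busulfan. The Spata tails averaged 157 and 158 nt and then 130 and 139 nt, and the Tex tails 140 and 141 nt and then 130 and 146 nt. In dcat testes the Tssk tails averaged 151 and 157 nt after vehicle and 99.1 and 123 nt after busulfan, above both wt busulfan samples. All reads of a sample averaged 112 and 115 nt in wt busulfan and 111 and 115 nt in dcat busulfan, so that the Tssk tails in wt busulfan lay below, and the Spata tails above, the average of their own samples. These are averages over reads and carry no test. They also weigh the genes by their reads. Tssk6 gave 9 of 19 and 40 of 63 Tssk reads in wt busulfan, and 15 of 46 and 38 of 113 in dcat busulfan. Tssk1 gave 1 read in each wt busulfan sample. A different mix of genes is thus part of the Tssk averages, and its share was not tested.

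No member had 10 reads in all 4 wt samples, so tails could be compared in wt testes only at a minimum of 5 reads, where 5 genes were tested. Tssk6 tails averaged 140 and 145 nt in wt vehicle and 46.8 and 57.6 nt in wt busulfan, on 9 and 40 reads, a difference of -90.0 ± 14.3 nt (limma adjusted p = 0.000591). Tssk3 tails averaged 146 and 164 nt, then 65.8 and 68.7 nt on 9 and 10 reads (-88.0 ± 13.0 nt, adjusted p = 0.00037). Spata4 tails averaged 148 and 147 nt, then 71.8 and 116 nt on 7 and 22 reads (-53.4 ± 10.99 nt, adjusted p = 0.00347). These 3 of 5 were shorter, where 22.7% of all 1077 transcripts tested at that minimum were. Tails of all transcripts shifted too: at a minimum of 10 reads the median difference in wt testes was -19.9 nt over 527 transcripts. No fit with centred samples, which takes out that shift, was run at 5 reads. Spata33 (143 and 147 nt, then 110 and 148 nt, adjusted p = 0.34) and Tex30 (132 and 140 nt, then 148 and 122 nt, adjusted p = 0.977) were not called, and their samples overlapped.

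In dcat testes 5 genes had at least 10 reads in all 4 samples, and 3 of them had shorter tails after busulfan, where 29.7% of 441 transcripts did. A sample under 10 reads was left out of the fit for that transcript, which removed at least 1 wt busulfan sample for each of the 5. Spata18 tails averaged 178 and 172 nt after vehicle and 116 and 114 nt after busulfan (-59.5 ± 10.8 nt, adjusted p = 0.00497). Tssk2 tails averaged 143 and 161 nt, then 89.2 and 112 nt (-51.3 ± 11.1 nt, adjusted p = 0.0115). Tssk6 tails averaged 146 and 148 nt, then 70.2 and 125 nt (-49.3 ± 15.6 nt, adjusted p = 0.0435), and the difference was -22.0 nt (adjusted p = 0.202) without dcat busulfan replicate 1. Spata4 (142 and 152 nt, then 136 and 144 nt, adjusted p = 0.437) and Tssk3 (159 and 154 nt, then 149 and 141 nt, adjusted p = 0.467) were not called. With the tails of each sample centred, which takes out the shift of all transcripts (median -17.2 nt), none of the 3 was called. Their centred differences were -36.8 nt for Spata18, -28.5 nt for Tssk2 and -26.5 nt for Tssk6, with adjusted p from 0.0526 to 0.166. Without dcat vehicle replicate 2 or dcat busulfan replicate 1, 1 member was called.

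Of the 6 members with enough reads to be tested, Tssk3 had the tails furthest apart between genotypes after busulfan. At a minimum of 5 reads its tails were 77.4 ± 11.7 nt longer in dcat than in wt testes (limma adjusted p = 0.006), 1 of 6 members tested, where 0.327% of 1837 transcripts were longer. Spata4 (45.7 ± 11.4 nt, adjusted p = 0.128) and Tssk6 (45.2 ± 14.5 nt, adjusted p = 0.321) were not called. The interaction for Tssk3 was 76.2 ± 17.5 nt (adjusted p = 0.133) and was not called either. Tssk3 had 9 and 10 reads in the wt busulfan samples and 10 and 14 in the dcat busulfan samples, and at a minimum of 10 reads no member could be tested in either of these comparisons.

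**Figure D4:**
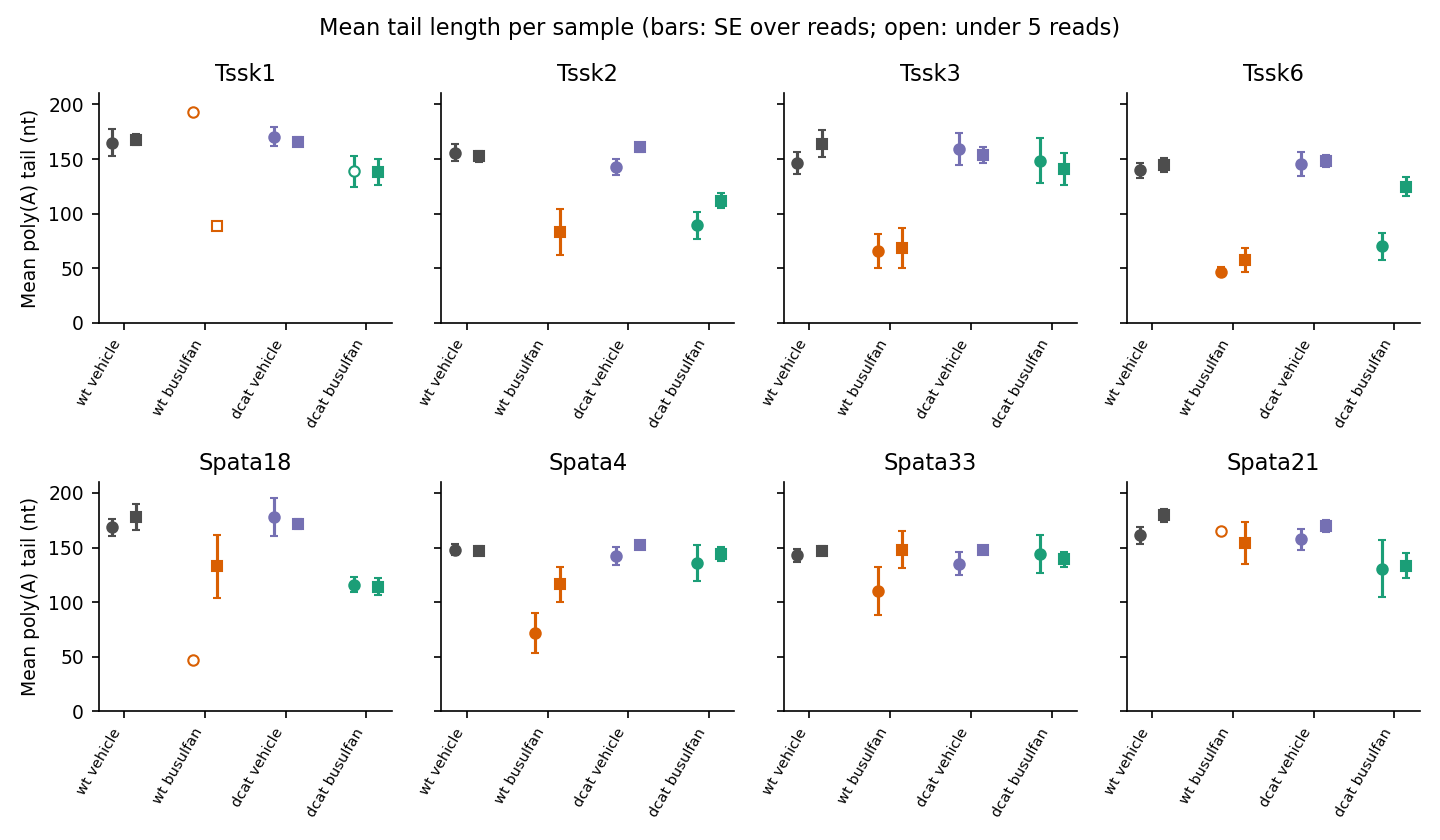
Mean poly(A) tail in nt per sample for the 4 Tssk genes and for Spata18, Spata4, Spata33 and Spata21, in the 4 groups; circles are replicate 1, squares replicate 2, bars the SE over the reads of that sample, and open symbols stand for fewer than 5 reads. Tssk2 had no read in wt busulfan replicate 1; the wt busulfan means of Tssk3 and Tssk6 lie under 70 nt, and the dcat busulfan means of Tssk3 lie between 140 and 150 nt.

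Known protein partners of the members were listed as well, of which 10 of 17 genes, with 11 transcripts, were read. In wt testes 9 of the 11 transcripts were lower after busulfan and in dcat testes 8, with medians of -2.52 and -1.37, where 38.3% and 31.4% of all transcripts were lower. Apart from those of Hsp90aa1 and Vdac2, the partner transcripts entered the table only through a vehicle group. Of all such transcripts, 94.8% were lower in wt and 82.3% in dcat testes, so the filter favoured these calls. Tsacc, the co-chaperone that helps activate TSSK kinases, went from 48 and 59 reads to 4 and 5 in wt testes (-4.12 ± 0.56, adjusted p = 1.57e-06) and from 19 and 127 to 9 and 44 in dcat testes (-1.40 ± 0.44, adjusted p = 0.00866). Adam3, the sperm protein whose maturation needs TEX101, went from 37 and 66 reads to 3 and 4 in wt testes (-4.39 ± 0.55, adjusted p = 6.2e-07). Ppp3r2, the testis calcineurin subunit with which SPATA33 works, went from 55 and 84 reads to 3 and 3 (-5.04 ± 0.59, adjusted p = 2.51e-07). The Hsp90aa1 transcripts, which many tissues make, also fell (-1.82 ± 0.37 and -1.56 ± 0.39), and Vdac2 and Syce2 were not called in either genotype. After busulfan 3 of the 11, those of Tsacc, Gk2 and Ppp3r2, were higher in dcat than in wt testes (edgeR adjusted p from 0.0111 to 0.0473). Of all transcripts 5.39% were higher. Tsacc had 4 and 5 reads in wt against 9 and 44 in dcat testes, Gk2 1 and 2 against 6 and 23, and Ppp3r2 3 and 3 against 3 and 25. Most of these dcat reads were in dcat busulfan replicate 2, and the partners were not tested without it.

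The members' transcripts were short, with a median of 1080 nt (380 to 4934 nt) where it was 1744 nt over the 2738 transcripts found in the annotation. The poly(A) signal AATAAA stood in the last 40 nt of 22 of the 34 transcripts (64.7%), as it did in 63% of all. Some counts are uncertain, because a read could have been given to either of a pair of transcripts. The paired transcripts of Spata20, Spata6l and Tex48 share their last exon. Spata18 shares 1612 nt (81.5% of its length) with a transcript that has no symbol in the files and that GENCODE assigns to Spata18; its reads numbered 8 and 3 (vehicle) and 3 and 7 (busulfan) for wt mice, against 3 and 16 (vehicle) and 10 and 19 (busulfan) for dcat mice, and its tails averaged 104 and 115 nt in dcat busulfan. Tssk1 and Tssk2 share 125 stretches of 50 nt (9.3% of those of Tssk2), Spata24 up to 57% of its stretches with a second annotated gene copy, and Tex30 17.7% with Gm29247. Tssk6 overlaps 375 nt of Ndufa13 exon (28.1% of its length) on the opposite strand. Ndufa13, a subunit of the respiratory chain, had 25 to 70 reads in a sample, and its tails averaged 88.8 and 90.9 nt in wt busulfan and 114 and 107 nt in dcat busulfan. Ndufa13 spans chr8:69894180-69902558 on the minus strand, so the overlap lies at the 5′ ends of both transcripts, while direct RNA is read from the 3′ end. Whether the alignment kept the strand of the read is not given in the sources used here, and reads that lay within the overlap alone were not counted.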

How the data were processed

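Poly(A) RNA of 8 testes was sequenced by the authors with a direct RNA kit. The authors deposited raw read counts per transcript and, for each read, its tail length in nt (per the file headers, a value for 1 molecule), made with Guppy, minimap2 (2.20-r1061 per the labels, another version in the methods) against GENCODE transcripts of GRCm38 (mm10), Nanopolish and Deeplexicon. A transcript stayed in their table if both samples of some group had 10 reads or more. Their log2 fold changes and adjusted p-values from DESeq2 were not used. No unmapped column of per-sample values was present. Direct RNA is read from the 3′ end without PCR. Counts were as many as tails in every transcript and sample (0 differed). Members and lists were chosen with earlier results of these data known. A Spata gene that the rule set aside is not reported here.

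Counts were compared with edgeR 4.0.16 (R 4.3.3; TMM, quasi-likelihood test, 8 samples as 4 groups). Mean tails per transcript and sample were compared with limma 3.58.1 (lmFit and eBayes, trend on log2 mean reads), with at least 10 reads in each sample compared. Tests were two-sided, with Benjamini-Hochberg adjustment across every transcript tested and a threshold of 0.05. Both were tested on simulated data. P-values rest on 2 mice per group. Counting intervals are exact (95%) on the reads of 2 groups scaled to library size, and groups without a read were set at 3 reads per library. Alternatives were DESeq2 1.42.0, RLE scaling, a filter on low counts, the 4 samples of a contrast, reads summed per gene, other tail summaries and minima, a replicate block and each sample left out. The methods of the paper, and not the sample labels, tie the replicate number to 1 of 2 multiplexed libraries, each with 4 barcoded extracts. Deviations of same-numbered samples correlated from -0.13 to 0.246 over 6 pairs of groups.

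Each gene stands for its transcript with the most reads. Named are all Tssk genes, the 8 Spata and 8 Tex genes with the most reads, members that differed between genotypes or did not fall in wt testes, the 5 largest and 5 smallest falls per genotype, and members whose tails changed. Members of the lists are named as well. Positions are from GENCODE vM21 (GRCm38).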

Additional observations from a re-analysis of the deposited data

How the results depend on the processing

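The count of members lower after busulfan in wt testes was 32 in all leave-one-out fits and 27 of 29 with reads summed per gene; in dcat testes it was 25 to 29 under the other settings and 12 to 29 when a sample was left out, 12 being without dcat vehicle replicate 2, where Spata31f3 went from -1.78 on the log2 scale to 0.030 (-2.20 to 0.030 in leave-one-out fits). The count that differed between dcat and wt testes after busulfan (10) was 2 with DESeq2, 6 with reads summed per gene and 0 to 14 in leave-one-out fits. The interaction called 0 members in edgeR, 3 with RLE scaling, 1 with a filter on low counts, 2 with reads summed per gene, 9 with the replicate block and 0 to 12 in leave-one-out fits. Shorter tails after busulfan in dcat testes (3 of 5) fell to 0 at a minimum of 20 reads, where no member could be tested, and to 0 with centred samples, and were 1 to 3 in leave-one-out fits. Tails changed in wt testes were 3 at a minimum of 5 reads and 0 to 4 in leave-one-out fits (4 of 6 without wt busulfan replicate 1), and tails that differed between genotypes after busulfan were 1 and 0 to 1. The replicate block changed no other call count by over 1.5 times. After vehicle, the counts for levels and for tails were 0 under every setting. The cause of these changes was not tested. Named log2 fold changes kept direction and side of the threshold in 388 of 391 values in wt testes, 314 of 336 in dcat testes and 67 of 124 between genotypes after busulfan, and tail differences in 30 of 42. Depth limits which tails could be tested: wt busulfan replicate 1 had 79 reads of all members.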
